A study of Mus musculus with 7 samples.

Results

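The genes described here are the mitochondrially encoded genes of the mouse, chosen as every gene on the mitochondrial chromosome (chrM, symbols beginning with mt-). They were 37 of the 56748 genes in the count files, with 13 messenger RNA genes, 2 ribosomal RNA genes and 22 transfer RNA genes. RNA of cultured muscle stem cells (MuSCs) was sequenced as long direct cDNA reads on an Oxford Nanopore platform, with 3 libraries from WT mice and 4 from homozygous Jag2sm mice. All cells came from hind limb muscles of adult mice by antibody-mediated magnetic sorting for cells without CD31, CD45 and Sca1 and with integrin α7, and were kept in myoblast growth medium with FBS and bFGF. Jag2 encodes a NOTCH ligand, and the Jag2sm allele is a natural missense change in an EGF repeat of JAG2, described by the study as hypomorphic, although the genotype label reads Jag2-/-. The strain of the WT mice, the sex of the animals and the number of animals behind a library were not stated in the labels, so p-values measure the spread between these samples, which may be technical.

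The mitochondrial chromosome is transcribed by a dedicated polymerase into long transcripts that cover nearly all genes of a strand, and the transfer RNAs between the genes mark where the transcripts are cut. The messengers encode subunits of respiratory complexes I, III, IV and V, while the ribosomal RNAs mt-Rnr1 (12S) and mt-Rnr2 (16S) form the mitochondrial ribosome together with proteins encoded in the nucleus. Most mitochondrial messengers and the ribosomal RNAs carry short poly(A) tails, from which the reverse transcription of a direct cDNA library starts. Of the 37 genes, 28 lie on the plus strand and 9 on the minus strand, the latter being mt-Nd6 and 8 transfer RNA genes.

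The libraries held 187834 to 1657016 gene counts in WT and 671660 to 1937581 in Jag2sm. WT replicate 1 was the smallest library, and 45.1% of its aligned reads fell on no gene, against 20.8% to 25.7% in the others. Reads that were not aligned made up 46.0% to 50.8% of Jag2sm replicates 1, 2 and 4 and 2.44% to 3.24% of Jag2sm replicate 3 and the WT libraries. Levels are given as normalized CPM, the count scaled to the library size after TMM normalization. The 8 markers of muscle stem cells and myoblasts were all detected, with summed levels of 3346 to 5839 CPM in WT and 2165 to 2633 in Jag2sm. The sum was dominated by Des, which was called lower (means of 2761 and 889 CPM, edgeR adjusted p = 0.0244), and 4 of the 8 markers were fitted above 0, among them Pax7, at 28.8 to 95.7 CPM in WT and 100.4 to 172 in Jag2sm without a call (edgeR adjusted p = 0.174). Jag2 was at 80.7, 114 and 116 CPM in WT and at 42.4, 78.8, 71.9 and 77.4 in Jag2sm, a log2 difference of -0.64 ± 0.24 (SE, adjusted p = 0.166 by edgeR), and with a missense allele its level does not check the genotype.

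The counts covered the chromosome unevenly. Of the 37 genes, 15 had a count in some library and 22 were listed at 0 in every library, which were mt-Atp8 and 21 transfer RNA genes. A count of 0 allows up to 0.999 CPM over the pooled WT libraries and 0.571 CPM over the pooled Jag2sm libraries, for counting error only. This limit does not cover RNAs that the library or the alignment misses, so these 0 counts are not read as low levels. The 6 messengers mt-Co2, mt-Atp8, mt-Atp6, mt-Co3, mt-Nd3 and mt-Nd4l had 139 counts in all over the 7 libraries, and no single one of them had more than 17 in any library. They held 0.0954% of the 145728 messenger counts, whereas each of the other 7 messengers had at least 82 counts in every library.

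These 6 messengers lie in a row on the chromosome and share a feature of the reference genome. Nuclear copies of mitochondrial DNA are common in mammalian genomes, and in GRCm39 a copy on the minus strand of chromosome 1, chr1:24650616-24655269, matches chrM:6390-11042. Of 4654 aligned columns, 4651 were identical (99.936%). The differences were 1 mismatch in mt-Co1, 1 mismatch in mt-Nd3 and 1 gap in mt-Tr. All 6 messengers lie wholly inside the copied stretch, as do 5 transfer RNA genes. The stretch also covers 63.6% of mt-Nd4 (876 of 1378 bases) and 31.3% of mt-Co1 (483 of 1545 bases), but no base of mt-Nd1, mt-Nd2, mt-Nd5, mt-Nd6, mt-Cytb, mt-Rnr1 or mt-Rnr2. A second, less similar copy at chr2:22477300-22480546 matched chrM:4441-7699 at 97.362%.

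The edge of the chromosome 1 copy inside mt-Nd4 is shown here because it separates the part of a messenger that can be placed on either chromosome from the part that cannot. Capitals mark the bases inside the copy. Of these, 30 of 30 were identical, against 7 of 30 beyond the edge.
mt-Nd4, chrM:11013-11072, plus strand: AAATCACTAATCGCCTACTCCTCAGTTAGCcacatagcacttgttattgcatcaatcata
nuclear copy, chr1:24650586-24650645, minus strand: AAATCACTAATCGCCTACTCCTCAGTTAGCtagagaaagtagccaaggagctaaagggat

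The start of mt-Co3, which encodes a subunit of cytochrome c oxidase (complex IV), is shown as an example of a messenger wholly inside the copy, with all 60 bases in capitals because all 60 were identical.
mt-Co3, chrM:8607-8666, plus strand: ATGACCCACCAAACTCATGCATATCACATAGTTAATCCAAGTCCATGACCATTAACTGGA
nuclear copy, chr1:24652993-24653052, minus strand: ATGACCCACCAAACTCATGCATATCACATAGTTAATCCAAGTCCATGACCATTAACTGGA

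When the reference sequence of each gene was aligned to the genome with minimap2, the mapping quality was 0 for mt-Co2, mt-Atp8, mt-Atp6, mt-Co3 and mt-Nd4l and 7 for mt-Nd3. It was 60, the highest value seen, for the other 7 messengers and both ribosomal RNAs. A mapping quality of 0 means that another place in the genome matched as well. The authors' counting set aside 9.80% to 14.3% of aligned reads per library for low alignment quality, and whether reads of these 6 messengers are among them was not tested. Their low counts are therefore not read as low levels, and the plot of levels along the chromosome shows them only to mark where the counts are missing.

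Annotated pseudogenes in the chromosome 1 copy had counts of their own. Gm28661, at chr1:24653966-24654646 opposite mt-Co2, had 183 counts in WT and 252 in Jag2sm, where mt-Co2 itself had 34 and 55. Gm28437, at chr1:24652270-24653052 opposite mt-Co3, had 101 and 140 counts against 12 and 14 for mt-Co3. The pseudogene opposite the end of mt-Co1, Gm29216, had 286 and 436 counts. Gm28439, opposite the copied part of mt-Nd4, had 3 counts in each genotype, although mt-Nd4 was the most counted messenger. Gm28438, opposite mt-Nd3, had 6 and 15 counts, and Gm10222, opposite mt-Nd4l, had 0. In all, the pseudogenes held 579 of 3004053 gene counts in WT and 846 of 5254162 in Jag2sm, so that these raw counts do not compare the genotypes. In normalized CPM, all 3 pseudogenes that were tested were fitted below 0 (median log2 fold change -0.47), beside 46.0% of all tested genes. Every Jag2sm library was below every WT library for Gm28437 and Gm29216, as for 12.2% of all tested genes. None was called by edgeR or by DESeq2, and 1 had an unadjusted p under 0.05 in edgeR, beside 19.7% of all tested genes. Reads of a gene and of its near-identical copy cannot be told apart, so these counts are uncertain in both directions.

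**Figure D1:**
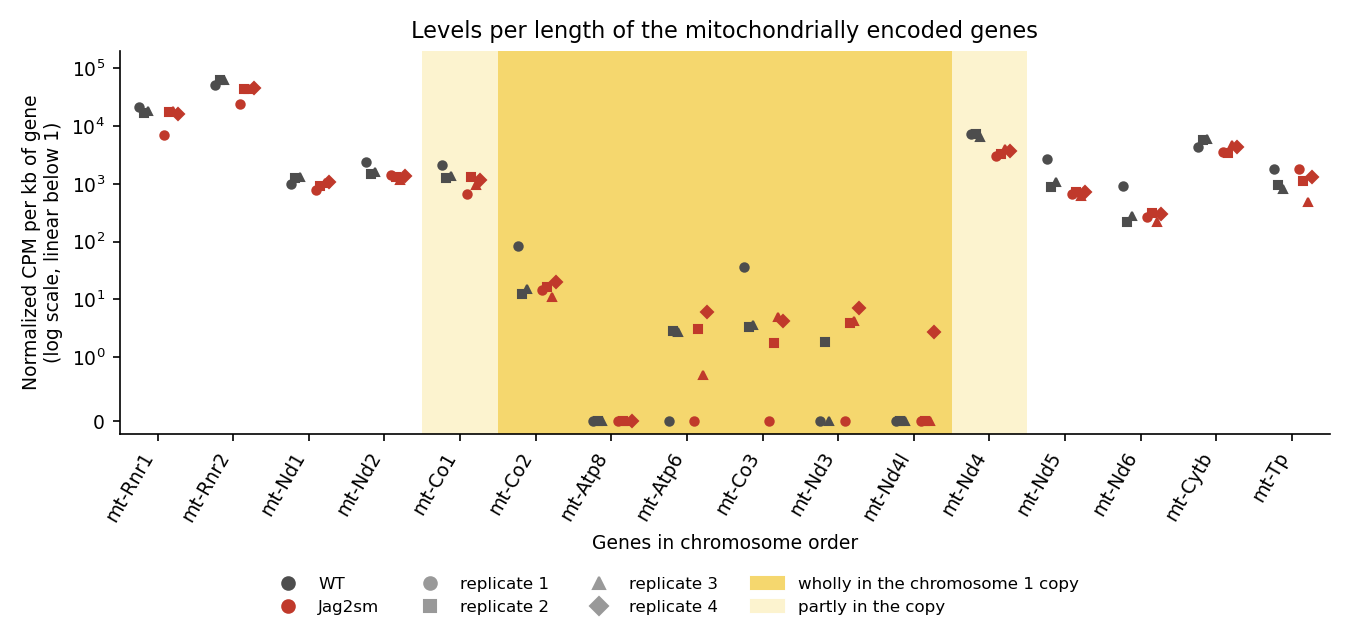
Normalized CPM per kb of gene (log scale, linear below 1) for the 13 messengers, both ribosomal RNAs and mt-Tp in chromosome order, with 1 point per library for the 3 WT and 4 Jag2sm libraries. The 6 messengers wholly inside the chromosome 1 copy (dark band) have at most 17 counts for any gene in any library and are not to be read as levels. The messengers outside the copy or partly in it (light bands) have at least 82 counts each in every library.

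Among the genes outside the copy or partly in it, levels per length differed widely. Whether counts of these long reads scale with gene length was not tested. In CPM per kb of gene, mt-Rnr2 stood at 58221 ± 6413 in WT (SD, n = 3) and 38874 ± 10008 in Jag2sm (SD, n = 4). mt-Rnr1 followed at 18645 ± 2243 and 14669 ± 5172. The ranges of the 2 ribosomal RNAs over the libraries, 23884 to 62318 and 6969 to 20963 CPM per kb, did not overlap.

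The most abundant messengers per length were mt-Nd4, a core subunit of complex I, and mt-Cytb, the mitochondrially encoded subunit of complex III. In WT they stood at 6993 ± 369 and 5378 ± 888 CPM per kb, and in Jag2sm at 3504 ± 473 and 4013 ± 629. The order of their means per length was thus not the same in the 2 genotypes, although in Jag2sm the difference between them was within their spread. In CPM without division by length, mt-Nd4 and mt-Cytb had means of 9636 and 6152 in WT and 4828 and 4591 in Jag2sm. That order was the same in both genotypes. Next among the WT messengers came mt-Nd2 at 1812 ± 477, mt-Co1 at 1583 ± 460, mt-Nd5 at 1534 ± 989 and mt-Nd1 at 1185 ± 178 CPM per kb, neighbours that did not differ beyond their spread. Without division by length, the WT means were 2797 CPM for mt-Nd5, 2445 for mt-Co1, 1881 for mt-Nd2 and 1134 for mt-Nd1, so this order depends on the unit. mt-Nd6, the only messenger on the minus strand, was the lowest of the 7 at 468 ± 385 in WT and 275 ± 42 in Jag2sm.

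To compare the genotypes, the counts of each class were first taken as a share of all gene counts of a library. Messengers made up 2.49%, 2.14% and 2.10% of gene counts in WT replicates 1 to 3 and 1.36%, 1.44%, 1.67% and 1.59% in Jag2sm replicates 1 to 4. Every Jag2sm library lay below every WT library. In normalized CPM, which is scaled otherwise than these shares, this was the case for 12.2% of all tested genes. The means were 2.24% ± 0.218 (SD, n = 3) and 1.51% ± 0.142 (SD, n = 4). The widest 95% Wilson interval was 2.42% to 2.57%, for WT replicate 1, so counting error was small beside these differences. Within the batch numbers that the labels give, which equal the replicate numbers, the Jag2sm library was lower by 1.14, 0.700 and 0.431 percentage points.

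Ribosomal RNAs made up 9.28%, 10.7% and 10.5% of gene counts in WT and 4.68%, 8.66%, 9.06% and 8.63% in Jag2sm. The genotypes did not overlap here either, at means of 10.1% ± 0.753 and 7.76% ± 2.06, with within-batch differences of -4.60, -2.01 and -1.40 percentage points. Jag2sm replicate 1 stood well below the other 3 Jag2sm libraries, and without it the difference of the means went from -2.38 to -1.35 percentage points. The same library stood apart in Rgs5, one of the 4 markers of mural cells, at 645 CPM against 25.3 to 40.4 in the other Jag2sm libraries and 11.5 to 14.2 in WT. All 4 mural markers had a count in some library, and their summed level was 14.2 to 17.3 CPM in WT and 26.1 to 645 in Jag2sm. The 645 CPM of Jag2sm replicate 1 were Rgs5 alone, with Pdgfrb, Myh11 and Kcnj8 at 0 in that library. Pdgfrb had means of 3.00 CPM in WT and 0.961 in Jag2sm. The part of these markers in the ribosomal share was not tested.

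Together, the 37 genes held 12.4% ± 0.540 of gene counts in WT and 9.28% ± 2.17 in Jag2sm, without overlap between the genotypes.  A share of gene counts also depends on the counts of nuclear genes. In bulk RNA, fewer mitochondria, fewer cells that are rich in them, less RNA per mitochondrion and more nuclear RNA cannot be told apart.

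**Figure D2:**
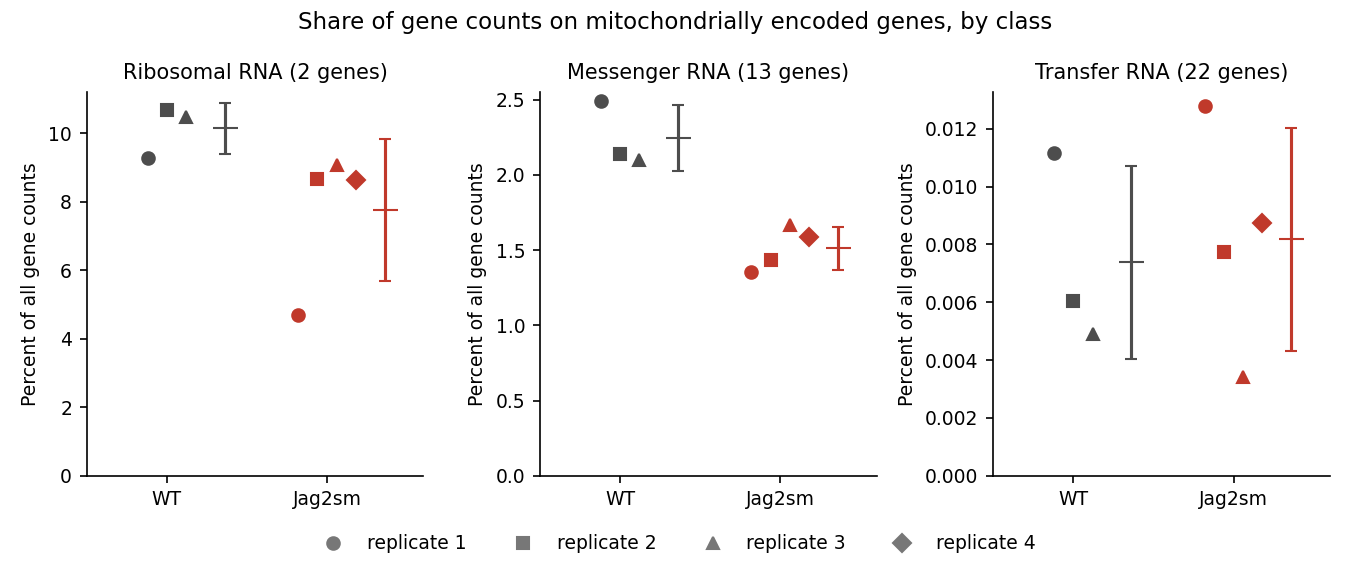
Percent of all gene counts on the 2 ribosomal, 13 messenger and 22 transfer RNA genes, with 1 point per library, marker shapes for replicate numbers, and the mean with SD beside the points (n = 3 WT, n = 4 Jag2sm; the vertical scale differs between panels). The genotypes do not overlap for ribosomal and messenger RNA and overlap for transfer RNA.

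The separation of the shares rested on the denominator. When reads on no gene and on more than 1 gene were added to it, the messenger share was 1.03%, 1.39% and 1.36% in WT and 0.798%, 0.905%, 1.05% and 1.02% in Jag2sm. The genotypes then overlapped because WT replicate 1, with its many reads on no gene, fell to 1.03%, while the Jag2sm library stayed the lower one in 3 of 3 batches. The ribosomal share behaved alike, at 3.81%, 6.93% and 6.77% in WT and 2.75%, 5.45%, 5.69% and 5.52% in Jag2sm. The 5 messengers with no base in the chromosome 1 copy held 1.27%, 1.03% and 1.08% of gene counts in WT and 0.810%, 0.776%, 0.926% and 0.893% in Jag2sm, without overlap.

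Markers of differentiated muscle were also lower in Jag2sm than in WT. All 6 were detected, with summed levels of 13273 to 26585 CPM in WT and 501 to 3455 in Jag2sm, and 5 of the 5 tested were called lower by edgeR, beside 4.84% of all tested genes. Acta1, the skeletal actin, was at 13944, 6071 and 6459 CPM in WT and at 1442, 634, 181 and 1389.9 in Jag2sm (log2 fold change -3.28 ± 0.63, SE, edgeR adjusted p = 0.0132). Among the Jag2sm libraries, replicate 3 had the lowest summed markers, 501 CPM, and the highest messenger and ribosomal shares. The part of the markers in the difference between the genotypes was not tested. Jag2sm replicate 3, whose unaligned reads were as few as those of WT, had a messenger share of 1.67% and a ribosomal share of 9.06%. Both lay below all WT libraries and above the other Jag2sm libraries. The part of unaligned reads in the shares was not tested. Markers of endothelial cells (4 of 5 with a count, Kdr at 0) summed to 2.59 to 11.5 CPM in WT and 2.45 to 14.1 in Jag2sm, those of immune cells (2 of 4, Ptprc and Adgre1 at 0) to at most 1.94 and 4.08, those of fibro-adipogenic cells (4 of 4) to 0 to 16.1 and 6.41 to 44.9, and those of glial cells (3 of 3) to 0 to 1.29 and 0.985 to 4.24.

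The classes were then compared with each other within each library. The log2 ratio of ribosomal to messenger counts was 1.89, 2.32 and 2.32 in WT and 1.79, 2.59, 2.44 and 2.44 in Jag2sm, and the genotypes overlapped. The means of 2.18 ± 0.245 and 2.32 ± 0.359 differed by 0.14, and the within-batch differences of -0.11, 0.27 and 0.12 did not share a sign. Without WT replicate 1 the difference was -0.0032. The difference between the genotypes in this ratio was thus smaller than the spread between libraries. The log2 ratio of mt-Rnr2 to mt-Rnr1 was 2.01, 2.65 and 2.46 in WT and 2.51, 2.03, 2.03 and 2.17 in Jag2sm, again with overlap.

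Of the 22 transfer RNA genes, 59 to 75 bases long, mt-Tp (tRNA-Pro, on the minus strand next to the control region) was the only one with counts, and its sequence is shown for that reason.
mt-Tp, chrM:15356-15422, minus strand: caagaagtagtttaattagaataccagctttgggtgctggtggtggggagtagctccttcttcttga
It had 21, 100 and 57 counts in WT and 86, 110, 66 and 107 in Jag2sm. As a share of gene counts this was 0.0112%, 0.00603% and 0.00492% in WT and 0.0128%, 0.00774%, 0.00341% and 0.00874% in Jag2sm, with overlap. Relative to the messengers of the same library, mt-Tp had 4.48, 2.82 and 2.34 counts per 1000 messenger counts in WT and 9.45, 5.38, 2.04 and 5.50 in Jag2sm. Jag2sm replicate 3 was the lowest of all 7 libraries and the other 3 Jag2sm libraries were the highest, so that the genotypes overlapped. When the 22 transfer RNA sequences were aligned on their own, minimap2 placed none of them. The 0 counts of the transfer RNAs other than mt-Tp are therefore not read as absence of these RNAs.

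The change of single genes was tested with edgeR over all 9489 genes that passed the filter on low counts. Of the 37 mitochondrially encoded genes 11 passed, namely 8 messengers, both ribosomal RNAs and mt-Tp. None of the 11 was called at an adjusted p under 0.05, against 6.26% of all tested genes. At an unadjusted p under 0.05, 2 of 11 passed (mt-Nd4 and mt-Nd5, both lower in Jag2sm), against 19.7% of all genes in either direction and 11.0% lower in Jag2sm. DESeq2 called the same 2 genes lower, against 4.69% of its genes, and limma-voom called mt-Nd4 lower, against 5.37%. The fitted log2 fold change lay below 0 for 10 of 11 genes, with a median of -0.57, whereas 46.0% of all genes lay below 0 and their median was 0.05. The 11 genes share libraries and long transcripts, so they are not independent of each other. The 10 include mt-Co2, whose low counts are not read as levels. Its own log2 fold change of -0.57 was the median of the 11, and it turned to 0.15 without WT replicate 1. Every Jag2sm library was below every WT library for 4 of the 11, mt-Rnr2, mt-Nd2, mt-Nd4 and mt-Nd5, beside the 12.2% of all genes given above.

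mt-Nd4, the messenger with the most counts, was at 9949, 9908 and 9049 CPM in WT and at 4143, 4451, 5583 and 5136 in Jag2sm. The lowest WT library thus lay well above the highest Jag2sm library, and the mean of Jag2sm was 0.501 of that of WT. The log2 fold change was -0.997 ± 0.278 (SE) with an adjusted p of 0.0624 by edgeR and 1.38e-06 by DESeq2. The edgeR call changed with the setting. Without WT replicate 1 the log2 fold change was -0.98 with an adjusted p of 0.0144, and with counts thinned to the smallest library the adjusted p was 0.0439. Over all other settings, DESeq2 and limma-voom among them, 5 called mt-Nd4 and 13 did not. With the replicate number as a block, the edgeR adjusted p was 0.305. Within batches, the log2 differences were -1.26, -1.15 and -0.70. Their shared sign follows from the lack of overlap, which makes Jag2sm lower in any pairing. The annotation of mt-Nd4 overlaps that of mt-Nd4l by 7 bases, and 63.6% of it lies in the chromosome 1 copy.

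mt-Nd5, another complex I subunit, was at 4871, 1591 and 1930.0 CPM in WT and at 1229, 1324, 1134 and 1297 in Jag2sm. WT replicate 1 stood far above the other libraries, and the 2 other WT libraries lay above all Jag2sm libraries by a smaller margin. The log2 fold change was -1.16 ± 0.37 (SE, adjusted p = 0.0999 by edgeR and 0.0333 by DESeq2), and -0.51 in edgeR without WT replicate 1. The within-batch log2 differences were -1.99, -0.26 and -0.77.

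mt-Nd6, also of complex I, showed the same high value in WT replicate 1, at 473, 113 and 142 CPM in WT and 139, 160, 114 and 158 in Jag2sm. Its log2 fold change of -0.64 ± 0.43 (edgeR adjusted p = 0.450) became 0.15 without that library. mt-Nd5 and mt-Nd6 lie on opposite strands and share 14 bases at their 3' ends, shown here in capitals because reads over them fall on both genes, and the strand setting of the counting is not given in the sources used here.
end of mt-Nd5 and of mt-Nd6, chrM:13532-13585, plus strand: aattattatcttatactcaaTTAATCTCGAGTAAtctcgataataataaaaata

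mt-Nd1 and mt-Nd2, the complex I subunits between the ribosomal RNAs and mt-Co1, were not called either. mt-Nd1 was at 939.6, 1203 and 1259 CPM in WT and 741, 868, 986 and 1042 in Jag2sm, overlapping at WT replicate 1. Its log2 fold change was -0.32 ± 0.24 (edgeR adjusted p = 0.509). mt-Nd2 was at 2444, 1513 and 1686 CPM in WT and 1500.3, 1371, 1193 and 1442 in Jag2sm. These do not overlap, but the nearest libraries were 1513 and 1500.3 CPM, and the log2 fold change was -0.45 ± 0.26 (edgeR adjusted p = 0.376).

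mt-Cytb was at 4986, 6625 and 6845 CPM in WT and 4084, 3899, 5415 and 4965 in Jag2sm, with WT replicate 1 inside the range of Jag2sm. Its log2 fold change was -0.42 ± 0.28 (edgeR adjusted p = 0.454). mt-Co1, the catalytic subunit of cytochrome c oxidase, was at 3257, 1934 and 2145 CPM in WT and 1027, 2027, 1481 and 1786 in Jag2sm, and its log2 fold change was -0.63 ± 0.31 (edgeR adjusted p = 0.302). In batch 2 the Jag2sm library was the higher one for mt-Co1, and in batches 1 and 3 the lower one. Of the messengers inside the copy only mt-Co2 passed the filter, at 57.6, 8.40 and 10.4 CPM in WT and 9.90, 11.1, 7.39 and 13.9 in Jag2sm. Its log2 fold change of -0.57 ± 0.61 (edgeR adjusted p = 0.667) rested on WT replicate 1, with 0.15 without it.

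**Figure D3:**
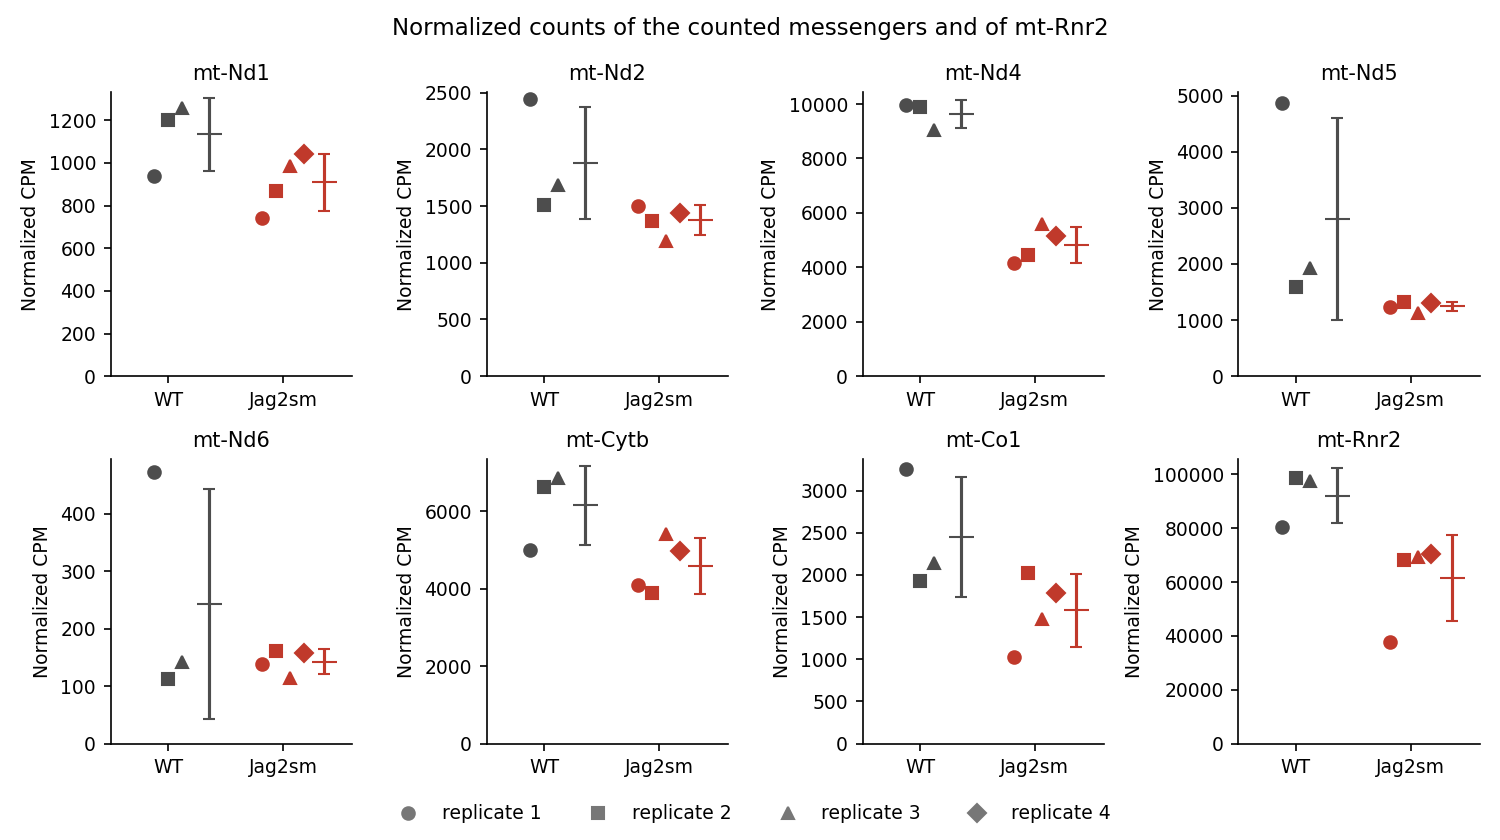
Normalized CPM of 7 messengers and mt-Rnr2 in the 3 WT and 4 Jag2sm libraries, with marker shapes for replicate numbers and the mean with SD beside the points. WT replicate 1 is the highest library for mt-Nd2, mt-Nd5, mt-Nd6 and mt-Co1 and the lowest WT library for mt-Nd1, mt-Cytb and mt-Rnr2, and for mt-Nd4 all WT libraries are at 9049 CPM or above and all Jag2sm libraries at 5583 or below.

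The ribosomal RNAs differed in how far the genotypes were apart. mt-Rnr2 was at 80413, 98588 and 97315 CPM in WT and 37785, 68306, 69440 and 70461 in Jag2sm, without overlap, and its log2 fold change was -0.58 ± 0.41 (edgeR adjusted p = 0.476). mt-Rnr1 was at 20019.5, 15743 and 17657 CPM in WT and 6656, 16753, 17014 and 15613 in Jag2sm, where only Jag2sm replicate 1 lay clearly below WT. Its log2 fold change was -0.35 ± 0.39 (edgeR adjusted p = 0.681), and the within-batch log2 differences were -1.59, 0.09 and -0.05. With both libraries of batch 1 left out, mt-Rnr2 was called lower by edgeR (log2 fold change -0.50, adjusted p = 0.0332) and mt-Rnr1 was not (-0.02). For mt-Tp, the log2 fold change was 0.11 ± 0.42 (edgeR adjusted p = 0.932).

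**Figure D4:**
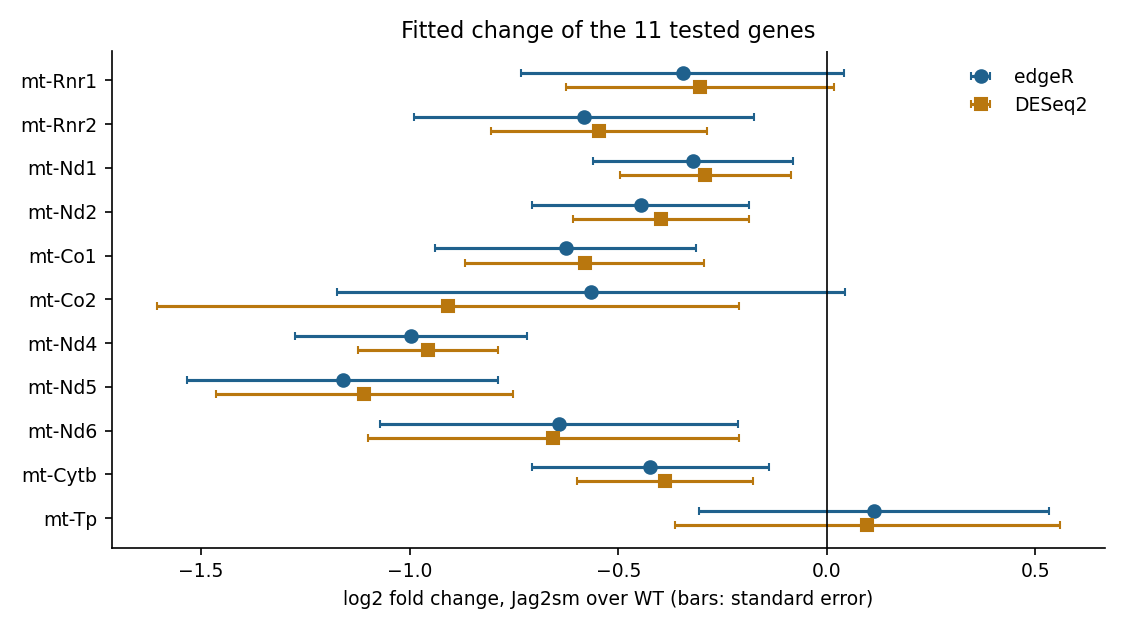
Log2 fold change of Jag2sm over WT with its standard error for the 11 tested mitochondrially encoded genes, by edgeR (circles) and DESeq2 (squares). 10 genes lie below 0 in both fits, and mt-Tp lies above it at 0.11 and 0.10.

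The make-up of the messenger pool was then compared, with each messenger as a share of the messenger counts of its library. mt-Nd4 held 36.8%, 43.3% and 39.2% in WT and 32.2%, 31.5%, 35.1% and 32.4% in Jag2sm, so that every Jag2sm library was below every WT library. The means were 39.8% ± 3.25 and 32.8% ± 1.56. mt-Nd1 had the opposite order, every Jag2sm library being above every WT library (a pattern of levels held by 10.3% of all tested genes), with 3.48%, 5.25% and 5.46% in WT and 5.76%, 6.15%, 6.20% and 6.57% in Jag2sm. These shares do not overlap either, at means of 4.73% ± 1.09 and 6.17% ± 0.334, and without WT replicate 1 the difference went from 1.44 to 0.813 percentage points.

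The other messengers overlapped. mt-Cytb held 18.5%, 28.9% and 29.7% of messenger counts in WT and 31.7%, 27.6%, 34.0% and 31.3% in Jag2sm. The means for WT and Jag2sm were 9.93% and 10.7% for mt-Co1, 11.1% and 8.56% for mt-Nd5, 7.65% and 9.49% for mt-Nd2, and 0.954% and 0.981% for mt-Nd6. Shares of a pool add up to a whole, so a lower share of mt-Nd4 raises the others.

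Ratios between pairs of messengers do not have this limit, and were computed after the shares had been seen. Of the 21 pairs among the 7 messengers not wholly inside the copy, 4 had no overlap between the genotypes. For the levels of all tested genes the share was 22.5% in either direction. No such share was computed for ratios, so the number of pairs is not read as a result. Their values are given as a description. The log2 ratio of mt-Nd4 to mt-Cytb was 1.00, 0.58 and 0.40 in WT and 0.02, 0.19, 0.04 and 0.05 in Jag2sm. For mt-Nd1 to mt-Nd4 it was -3.40, -3.04 and -2.85 in WT and -2.48, -2.36, -2.50 and -2.30 in Jag2sm. In contrast, mt-Nd1 to mt-Cytb ran from -2.46 to -2.41 in WT and from -2.46 to -2.17 in Jag2sm, so that the genotypes overlapped for this pair. The ratios of mt-Nd1 and of mt-Cytb to mt-Nd4 had no overlap, and none of these ratios was tested.

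The remaining pairs without overlap both include mt-Nd5. The log2 ratio of mt-Nd2 to mt-Nd5 was -0.99, -0.07 and -0.19 in WT and 0.29, 0.05, 0.07 and 0.15 in Jag2sm. For mt-Nd5 to mt-Nd6, the neighbours on opposite strands, the log2 ratio was 3.37, 3.81 and 3.76 in WT and 3.15, 3.05, 3.32 and 3.04 in Jag2sm. The ratio of mt-Nd4 to mt-Nd5 itself overlapped, from 1.03 to 2.64 in WT and from 1.75 to 2.30 in Jag2sm. The pairs share genes and libraries, and no test was made of their number.

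**Figure D5:**
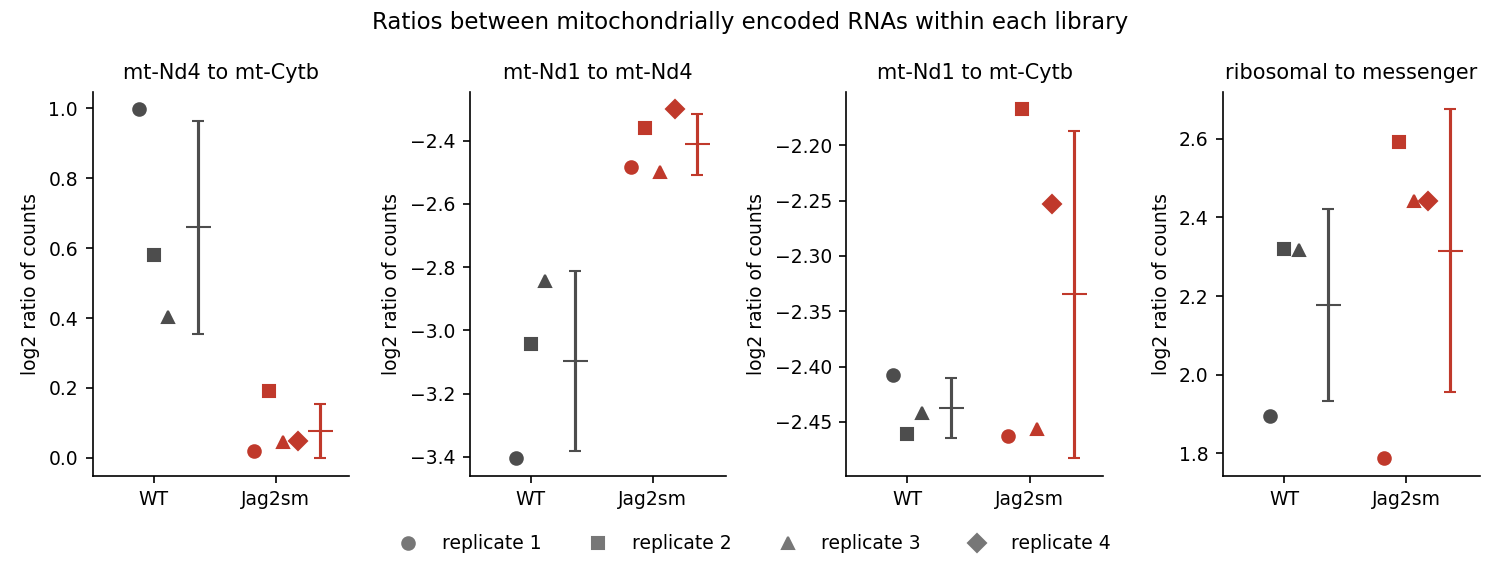
Log2 ratios of counts within each library for 3 pairs of messengers and for summed ribosomal to summed messenger RNA, with 1 point per library, marker shapes for replicate numbers, and the mean with SD (n = 3 WT, n = 4 Jag2sm; the vertical scales differ and do not start at 0). mt-Nd4 to mt-Cytb is at 0.40 or above in WT and at 0.19 or below in Jag2sm, while the ribosomal to messenger ratio overlaps.

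Nuclear genes that transcribe, maintain and process mitochondrial RNA were examined beside the mitochondrially encoded ones. No gene of these lists was called by edgeR. In mtDNA transcription, 8 of 10 genes were tested with a median log2 fold change of 0.03, beside 0.05 over all genes, and 0 at an unadjusted p under 0.05. Polrmt, the mitochondrial RNA polymerase, was at 28.8, 16.8 and 22.8 CPM in WT and 25.5, 26.3, 16.8 and 17.1 in Jag2sm (log2 fold change 0.02 ± 0.31, edgeR adjusted p = 0.993). Tfam, which packages mitochondrial DNA and starts its transcription, was at 40.4, 61.4 and 56.0 CPM in WT and 43.8, 62.9, 71.9 and 78.3 in Jag2sm (0.23 ± 0.24, edgeR adjusted p = 0.665). Neither separated the genotypes.

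Of the 30 genes for mitochondrial RNA processing, tailing and decay, 24 were tested, with a median of -0.21. Of these, 17 were fitted below 0, against 46.0% of all genes, and 4 passed an unadjusted p under 0.05 in edgeR, against 19.7%. Lrpprc, which stabilizes mitochondrial messengers, was at 69.2, 69.2 and 70.2 CPM in WT and 53.7, 54.6, 62.6 and 60.3 in Jag2sm. These values do not overlap, but the log2 fold change of -0.26 ± 0.18 did not pass (edgeR adjusted p = 0.474). Its partner Slirp was listed at 0 in every library, which is not read as absence of its RNA. Whether reads of Slirp were among those set aside in the counting was not tested. Mtpap, the mitochondrial poly(A) polymerase, was at 5.76, 14.2 and 14.2 CPM in WT and 24.0, 13.8, 20.2 and 20.4 in Jag2sm (0.54 ± 0.33, edgeR adjusted p = 0.400).

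Of the 16 genes for mtDNA replication and maintenance, 11 were tested with a median of 0.28, and 2 passed an unadjusted p under 0.05. The 9 tested of 13 mitochondrial translation factors had a median of -0.23, with none at an unadjusted p under 0.05. All 9 were fitted below 0, beside 46.0% of all genes, at log2 fold changes from -0.63 to -0.0045, so some were close to 0. Of the 78 mitoribosomal proteins, which assemble with mt-Rnr1 and mt-Rnr2, 74 were tested with a median of 0.03 and 4 at an unadjusted p under 0.05. Among 11 regulators of mitochondrial biogenesis, 9 were tested with a median of 0.23 and 1 at an unadjusted p under 0.05. DESeq2 called 1 gene over these lists, the nuclear receptor Esrrg, named here after its values were seen. Esrrg was at 28.8, 6.46 and 9.48 CPM in WT and 1.41, 0, 0 and 0.815 in Jag2sm (DESeq2 adjusted p = 0.00308), and it did not pass the edgeR filter on low counts.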

How the data were processed

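RNA of MuSCs was measured in 7 libraries, 3 WT and 4 Jag2sm. The deposited values are raw read counts per gene, 1 file per library, which the authors made by aligning long reads to GRCm39 with minimap2 2.17 and counting them with HTSeq, per the submitters' processing notes. The HTSeq version, mode and strand setting and the annotation release are not given in the sources used here. The 5 summary counts of each file entered no library size or test and were used for the description of library quality. A deposited table of the authors' comparison (mean normalized count, fold change, error, statistic and p-values) was not used, and 0 columns of per-sample values were left unused otherwise.

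Counts were analysed with edgeR 4.0.16 in R 4.3.3, using filterByExpr with a minimum count of 10 and a minimum total of 15, TMM normalization and glmQLFTest without covariates, and adjusted p-values (Benjamini-Hochberg) over all 9489 genes kept. SEs were derived from the log2 fold change and the F statistic. The scripts were first tested on simulated data. DESeq2 1.42.0 and limma 3.58.1 (voom) were alternatives, beside other scalings and filters, a robust fit, thinning to 187834 counts, a replicate block and leaving out each library. Class sums and ratios are descriptions with no test. Intervals are 95% Wilson intervals, the limit of a 0 is 3 counts, and both cover counting error only.

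Batch numbers in the labels equal replicate numbers, so WT and Jag2sm replicates 1 to 3 are paired by the labels and Jag2sm replicate 4 adds nothing to the block. Deviations from the genotype means correlated at 0.0740, 0.0144 and 0.0539 within these pairs, across genes, which are not independent replicates.

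Gene positions are from GENCODE M39 on GRCm39. Nuclear copies were found with blastn 2.17.0 (expected value at most 1e-10), and those of at least 1000 bases and 95% identity are given. Gene sequences were aligned with minimap2 2.31 and overlaps found with bedtools 2.31.1. All messengers, ribosomal RNAs and transfer RNAs with a count were named, as were Jag2, the called genes of the nuclear lists (none were called by edgeR) and Polrmt, Tfam, Lrpprc, Slirp and Mtpap. Rgs5, Pdgfrb, Myh11, Kcnj8, Acta1, Des, Pax7, Esrrg and the pseudogenes were named after their values were seen. The genes and lists were chosen with earlier results of these data known.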

Additional observations from a re-analysis of the deposited data

Results flagged for a closer look

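Jag2sm replicate 1 was far from the other 3 Jag2sm libraries in 3 of the 25 values of the Jag2sm group examined for a single library apart by Dixon's ratio, which marks about 5 in 100 groups by chance. It held mt-Rnr1 at 6656 CPM against 15613 to 17014 in the others, mt-Rnr2 at 37785 CPM against 68306 to 70461, and a ribosomal share of 4.68% of gene counts against 8.63% to 9.06%. The gap took 0.865, 0.934 and 0.902 of the group's range, each above the critical value for 4 libraries, and the 3 values are not independent of each other. The same library had 50.8% of reads not aligned, as against 46.7% and 46.0% in Jag2sm replicates 2 and 4, and the highest Rgs5 level, and the part of either in the ribosomal values was not tested.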

How the results depend on the processing

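Of 196 fold changes of single mitochondrially encoded genes under other settings, 181 kept their direction and their side of the threshold, 7 passed the threshold with the same direction and 8 turned direction. No gene was called higher under any setting. The number called lower went from 0 to 2 with DESeq2 (mt-Nd4 and mt-Nd5), to 1 with limma-voom and to 1 with counts thinned to the smallest library (mt-Nd4 in both), and to 2 without batch number 1 (mt-Nd4 and mt-Rnr2). Leaving out 1 library at a time gave 0 to 1, the 1 being mt-Nd4 without WT replicate 1. With the replicate block none was called, which changed no call, and mt-Tp turned to -0.16. mt-Tp was also at -0.25 with thinned counts, and ran from -0.14 without Jag2sm replicate 1 to 0.40 without Jag2sm replicate 3. Other turns came without WT replicate 1, where mt-Co2 reached 0.15 (from -1.20 without WT replicate 2) and mt-Nd6 reached 0.15 (from -1.01 without WT replicate 2), and without batch number 1, at 0.17 for each. Library size alone moved the median log2 fold change of all genes by 0.16, and the direction of no tested mitochondrially encoded gene turned with it.

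The difference in messenger share was -0.3151 percentage points with reads on no or several genes in the denominator, -0.2744 from messengers with no base in the copy, -0.3396 without mt-Nd4 and -0.5538 without batch number 1. That in transfer RNA share ran from -0.0007 without Jag2sm replicate 1 and -0.0004 without WT replicate 3 to 0.0027 without WT replicate 1. The log2 ratio of ribosomal to messenger RNA differed by -0.0212 without mt-Atp8, mt-Atp6, mt-Nd4l and mt-Nd4, by -0.0305 with messengers outside the copy, and by -0.0032 without WT replicate 1 to 0.3138 without Jag2sm replicate 1. Of 69 values of messenger composition 60 kept their direction. Without the 4 overlapping genes, mt-Co1 was at -0.4921 and mt-Nd6 at -0.0961 percentage points. Leaving out single libraries gave -0.4184 to 1.85 for mt-Co1, -4.64 to 0.9026 for mt-Nd5 and -0.2022 to 0.4260 for mt-Nd6, and mt-Nd5 was at 0.5732 without batch number 1. The causes were not tested. The settings on the chromosome 1 copy, its pseudogenes, mt-Nd4 and batch number 1 were chosen after seeing the data. At 187834 gene counts, WT replicate 1 limits low genes most, with 16.0 CPM for 3 counts.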
